A study of Mus musculus with 8 samples.

Results

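The genes described here encode the lipid-, starch- and RNA-digesting enzymes of the pancreatic acinar cell together with proteins of its secretory granules. They are Cel, Pnlip, Pnliprp1, Pnliprp2, Clps, Pla2g1b, Amy1, Rnase1, Gp2 and Sycn, chosen by name from the array annotation as all non-control probes carrying one of these symbols. All 10 genes were on the array, through 13 of its 41174 non-control probes, with 2 probes each for Pnlip, Amy1 and Rnase1. The main probe of every member, the one with the highest mean over the 8 arrays, was well above background on 8 of 8 arrays, so no member entered through the group in which it was high.

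RNA was measured in pancreatic epithelium microdissected from mouse embryos at e15.5 (the embryonic day), with the dorsal and ventral anlagen combined, by single-colour (Cy3) hybridisation. The 4 mutant (MUT) arrays held Sox9fl/fl; Rosa26-CreER embryos and the 4 wild-type (WT) arrays held Rosa26-CreER littermates labelled wild-type, so both genotypes carried the Cre transgene. All dams received 6 mg tamoxifen per 40 g in corn oil at e12.5, 3 days before dissection, and the strain was a Sox9-flox line of mixed FVB/N, C57Bl/6J and CD1 background crossed to Rosa26-CreER on C57Bl/6J. Each array was 1 RNA sample from 4 pooled pancreata, and Rosa26 drives CreER in all tissues of the embryo rather than in one cell type of the pancreas.

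Acinar cells form from the tips of the branching pancreatic epithelium during the secondary transition, when the PTF1 complex of PTF1A and RBPJL switches on genes for digestive enzymes. The enzymes are packed into zymogen granules, whose membrane carries the GPI-anchored glycoprotein GP2 and whose inner face binds syncollin, the product of Sycn. Sox9 is a transcription factor of the bipotent trunk epithelium, which gives rise to ducts and to the endocrine precursors marked by Neurog3.

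The stretch of 250 bases before the annotated start was searched for the letters that the PTF1 complex and other regulators are known to prefer. RefSeq promoter entries (GRCm38.p6) matched 9 of the 10 members, all except Clps. The hexamer TGGGAA, the core of the box bound by the RBPJ or RBPJL subunit of PTF1, was searched on both strands, as were the E-box CACCTG, the TATA-box letters TATAAA and the SOX-type hexamer ACAAAG. The sequences are the promoters of the 2 members with the largest genotype difference, Pla2g1b and Gp2, and of Pnliprp1 and Cel, in the direction of transcription and ending at the base before the start. Capitals mark TGGGAA or CACCTG on either strand (TTCCCA and CAGGTG are their reverse complements).
Pla2g1b: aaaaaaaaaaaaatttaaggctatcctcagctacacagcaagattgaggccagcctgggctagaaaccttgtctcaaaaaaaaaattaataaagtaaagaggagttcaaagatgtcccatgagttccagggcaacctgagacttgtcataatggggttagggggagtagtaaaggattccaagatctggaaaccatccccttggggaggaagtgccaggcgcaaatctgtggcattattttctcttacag
Gp2: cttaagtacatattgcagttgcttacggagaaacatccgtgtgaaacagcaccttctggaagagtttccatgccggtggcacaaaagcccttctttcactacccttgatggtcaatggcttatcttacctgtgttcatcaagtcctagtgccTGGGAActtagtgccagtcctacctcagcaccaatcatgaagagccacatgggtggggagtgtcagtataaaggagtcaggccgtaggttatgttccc
Pnliprp1: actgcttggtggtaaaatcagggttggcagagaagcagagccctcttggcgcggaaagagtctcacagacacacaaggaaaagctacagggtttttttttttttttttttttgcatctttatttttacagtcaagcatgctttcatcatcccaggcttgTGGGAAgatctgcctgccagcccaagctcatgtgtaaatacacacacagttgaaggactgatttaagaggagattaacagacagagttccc
Cel: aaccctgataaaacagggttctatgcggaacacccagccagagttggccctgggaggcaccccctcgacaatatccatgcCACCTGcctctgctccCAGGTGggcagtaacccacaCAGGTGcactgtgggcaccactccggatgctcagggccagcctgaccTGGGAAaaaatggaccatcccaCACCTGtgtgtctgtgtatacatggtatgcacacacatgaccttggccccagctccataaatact
They lie at chr5:115465892-115466141 on the plus strand for Pla2g1b, chr7:119459273-119459522 on the minus strand for Gp2, chr19:58728637-58728886 on the plus strand for Pnliprp1 and chr2:28563404-28563653 on the minus strand for Cel.

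TGGGAA was in the windows of 7 of the 9 members, namely Cel, Pnlip, Pnliprp1, Amy1, Rnase1, Gp2 and Sycn, against 21.6% of all 32851 promoters searched. In Cel, Pnliprp1 and Gp2 it began 87, 91 and 98 bases before the start, and the Gp2 window also held TATAAA from base 32 before it. The Pla2g1b window printed above had no match to any of the 4 motifs. CACCTG was in 2 of the 9 members (17.2% of all promoters), with 4 matches in Cel and 1 in Pnliprp2. TATAAA was in 3 of the 9, in Pnlip, Gp2 and 1 of the 2 Amy1 start sites (12.4% of all promoters). ACAAAG was in Rnase1 alone (16.5% of all promoters). Of 14 acinar protease genes with a promoter entry, 9 held TGGGAA, 11 CACCTG and 6 TATAAA. These are matches of letters, not measured binding. In the RefSeq gene order, Pnlip, Pnliprp1 and Pnliprp2 are neighbouring coding genes, Amy1 lies beside Amy2a1, and Gp2 lies beside Umod, its zona pellucida domain relative.

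Levels are given as log2 of the processed signal minus the 75th percentile of its array, so that 0 is the 75th percentile and 1 unit a doubling. The targeted gene followed the labels, with Sox9 at 1.77, 1.90, 1.87 and 1.77 in WT replicates 1 to 4 and at 0.59, 0.40, 0.52 and 0.47 in MUT replicates 1 to 4, a log2 fold change of -1.33 ± 0.07 (SE; limma, adjusted p = 7.96e-04). Where that probe lies relative to the floxed exons was not tested. MUT replicate 2 stood apart from the other 7 arrays, with a median processed signal of 756 against 219 to 272, 85.9% of probes well above background against 69.0% to 73.4%, and a median correlation of 0.852 with the arrays of its genotype against 0.992 to 0.994 for the others. Results are therefore given with and without it. All WT arrays were on 1 slide in 1 scan and all MUT arrays on another slide in another scan, so slide, scan and genotype cannot be told apart. All 9 measured acinar and tip transcription factors and all 8 duct and trunk markers, the markers of the labelled tissue, passed the background filter. So did 12 of 12 mesenchyme markers on the array, among them Vim at 5.70 ± 0.11 and Col1a1 at 6.18 ± 0.12 in WT (SD, n = 4). All endocrine (11), endothelium (8), erythroid (8), leukocyte (9), neural (9) and liver (7) markers on the array also passed. Of 12 gut markers, 9 passed. Over the whole array, 29462 of 41174 probes passed.

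No member changed between genotypes at an adjusted p under 0.05 in limma, where 5.58% of the 19333 genes and unnamed transcripts tested were called (2.13% higher and 3.46% lower in MUT). Pla2g1b, which encodes the secreted pancreatic phospholipase A2, and Gp2 had the largest differences, 2.68-fold and 2.04-fold higher in MUT, in the fit reported here, and were the 2 members with an unadjusted p under 0.05, a level that 25.5% of all features reached. The other 8 differed by between -0.54 and 0.31 on the log2 scale. The log2 fold change was above 0 in 8 of 10 members and in 49.3% of all features (in 2 of 10 members under median scaling, which shifted the median of all features to -0.40), with a median of 0.04 in the members and -0.01 over all features. Without MUT replicate 2, Pla2g1b was called higher, 1 of 10 members where 17.4% of all features were called (6.76% higher and 10.6% lower). The log2 fold change was then above 0 in 9 of 10 members and in 44.2% of all features, with medians of 0.14 and -0.03. Second probes were tested in a fit with every probe as its own feature, which called 3.84% of 29462 probes. In these pooled bulk samples, fewer cells of a type and less RNA per cell cannot be told apart.

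**Figure D1:**
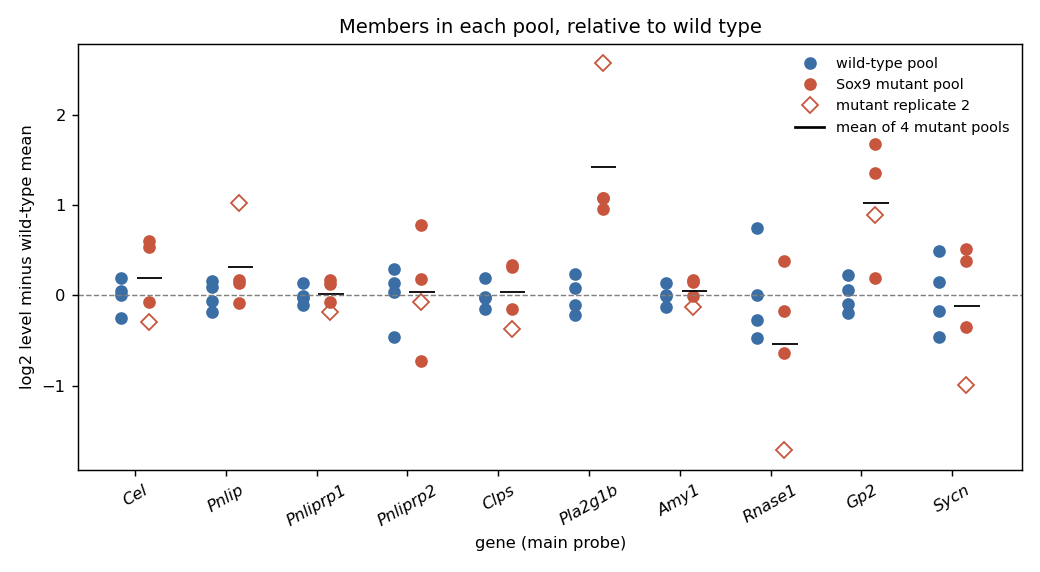
Log2 level of each member's main probe in each of the 8 pools, minus the mean of the 4 wild-type pools (vertical axis); blue points are WT, red points MUT, the open diamond is MUT replicate 2 and the black bar is the mean of the 4 MUT pools. In Pla2g1b every MUT point lies above every WT point, in Gp2 the lowest MUT point lies below the highest WT point, and in the other 8 genes the genotypes overlap.

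None of the 4 lipase genes, nor Clps, the gene of the cofactor of pancreatic lipase, separated the genotypes. Pnliprp1 encodes pancreatic lipase-related protein 1, a homologue of pancreatic lipase with little known lipase activity. Its log2 level was 7.64, 7.73, 7.88 and 7.71 in WT and 7.67, 7.56, 7.87 and 7.91 in MUT replicates 1 to 4. The pools of the genotypes were interleaved, with a fold of 1.01 (95% confidence interval 0.857 to 1.18; limma, adjusted p = 0.952). Its processed signal was 391630 to 494730 scanner units, below the scanner's saturation value of 619828, and no member was flagged as saturated on any array. Whether the signal stays proportional to RNA at such levels was not tested. The probe maps to chr19:58793788-58794381 in the array's mm8 coordinates, a span of 594 bases.

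Clps encodes colipase, the cofactor that holds pancreatic lipase on bile salt-coated fat droplets. It measured 7.10, 7.23, 7.45 and 7.22 in WT and 7.10, 6.88, 7.57 and 7.59 in MUT (probe at chr17:28285886-28285945, mm8). The 2 highest pools were MUT and the lowest was MUT replicate 2, so the groups overlapped, with a log2 fold change of 0.03 ± 0.18 (SE; limma, adjusted p = 0.913).

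Cel encodes carboxyl ester lipase, which hydrolyses cholesteryl and vitamin esters after activation by bile salts. It measured 6.01, 6.26, 6.46 and 6.31 in WT and 6.19, 5.96, 6.86 and 6.80 in MUT (chr2:28378098-28378157, mm8). MUT replicates 3 and 4 were above every WT pool while MUT replicates 1 and 2 lay among or below them. This gave a log2 fold change of 0.19 (95% confidence interval -0.33 to 0.72; limma, adjusted p = 0.590) and 0.36 without MUT replicate 2 (-0.07 to 0.79; adjusted p = 0.209).

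Pnliprp2, a lipase-related protein that also takes phospholipids and galactolipids, lay near the 75th percentile of the array. It measured -0.28, 0.23, 0.48 and 0.32 in WT and -0.54, 0.12, 0.96 and 0.37 in MUT (chr19:58827320-58827379, mm8). The highest and the lowest of the 8 values were both MUT, and its SD was 0.33 in WT and 0.62 in MUT (n = 4 each). The interval of the log2 fold change, -0.71 to 0.79 around 0.04, was therefore wide (limma, adjusted p = 0.945).

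Pnlip, which encodes pancreatic triglyceride lipase itself, the main fat-digesting enzyme of the adult gland, lay below the 75th percentile on every array. Its main probe (chr19:58734056-58734115, mm8) gave -3.73, -3.60, -3.39 and -3.45 in WT and -3.63, -2.51, -3.37 and -3.40 in MUT. The difference of 0.31 (limma, adjusted p = 0.424) fell to 0.07 without MUT replicate 2 (adjusted p = 0.650), the highest of the 8 pools; the other 7 lay between -3.73 and -3.37. The second Pnlip probe (chr19:58727102-58727161, mm8) was well above background on 3 of 8 arrays and was not tested. It read 255 scanner units on MUT replicate 2 and between 9.53 and 33.5 on the other 7 arrays.

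Pla2g1b, the phospholipase gene, was the only member whose genotypes did not overlap. Its processed signal was 91.3, 118, 118 and 111 scanner units in WT and 241, 786, 234 and 236 in MUT replicates 1 to 4 (probe at chr5:115735580-115735639, mm8). All 4 MUT pools were above all 4 WT pools, an ordering that 10.6% of all features shared in that direction. On the log2 scale the means were -4.21 ± 0.20 in WT and -2.78 ± 0.77 in MUT (SD, n = 4 each). The log2 fold change was 1.42 ± 0.36 (SE; 95% confidence interval 0.58 to 2.27; limma, unadjusted p = 0.00490, adjusted p = 0.0666). The MUT spread came mostly from replicate 2: the other 3 MUT pools measured -3.25, -3.13 and -3.12. The probe was dim, below the array median on the WT arrays (219 to 246) and on MUT replicates 1, 3 and 4 (237 to 272). On MUT replicate 2 its 786 units lay near that array's median of 756. Whether its value there differs from other probes of that level was not tested. Without replicate 2 the log2 fold change was 1.04 ± 0.11 (SE; 2.06-fold, 95% confidence interval 1.71 to 2.47; limma, adjusted p = 0.00262). With normexp background correction it was 0.46 (limma, adjusted p = 0.997), and it was 0.68 from the values of the deposited series table (adjusted p = 0.00215).

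Some lists of markers of other cell types also set MUT replicate 2 apart. It was the highest MUT pool for 8 of 8 erythroid, 6 of 7 liver and 8 of 9 stomach and intestine markers, against 41.9% of all features. It was the lowest MUT pool for 10 of 11 endocrine, 10 of 12 mesenchyme and 7 of 9 leukocyte markers, against 47.3% of all features. Other lists were nearer that share, with it lowest for 4 of 8 duct, 5 of 8 endothelium and 5 of 9 neural markers. MUT replicate 2 was also lowest for 12 of 14 acinar proteases and 8 of 9 acinar factors. It was lowest for 11 of 21 other granule genes and 2 of 6 receptors. Its negative control probes had a median of 20.4 scanner units, against 4.43 to 6.47 on the other 7 arrays. The median of that array was 756 units at a 75th percentile of 2550, against 219 to 272 at 1971 to 2410. After centring, a probe at the median lay higher on that array. The shares are not matched for level, so cell content and signal level cannot be told apart in these counts. The summed linear level of the liver list, in multiples of the array's 75th percentile, was 6.95 to 20.6 in WT and 13.3 to 41.7 in MUT, that of the gut list 2.46 to 6.48 and 2.53 to 4.43, and that of the erythroid list 55.1 to 93.2 and 52.1 to 73.3. The erythroid sum covers 7 genes, without Hba-a1, which had no value on MUT replicate 1. Of the 8 erythroid genes, Hbb-y (1.67, limma, adjusted p = 0.0441) and Hba-x (1.42, adjusted p = 0.0486) were called higher in MUT. None was called lower, and 2.13% of all features were called higher. The median of the 8 was -0.10, so the list as a whole was not higher in MUT. Without MUT replicate 2, Epb42 was called lower (-1.26, limma, adjusted p = 0.0146), as were 10.6% of all features. The part of these markers in the Pla2g1b value of that pool was not tested. Without MUT replicate 2 the Pla2g1b groups still did not overlap, as for 14% of all features in that direction.

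Among the 8 tested genes for other secreted phospholipases A2 and their receptor, Pla2g5 was called higher (log2 fold change 1.27 ± 0.17, limma, adjusted p = 0.0107; 1.39 without MUT replicate 2, adjusted p = 0.00267). With all arrays none was called lower, and without MUT replicate 2 Pla2g2c was (-0.72, limma, adjusted p = 0.0347). Of all features, 2.13% were called higher and 3.46% lower with all arrays. Without MUT replicate 2 the shares were 6.76% and 10.6%. Pla2g5 was at -3.33 ± 0.18 in WT and -2.06 ± 0.33 in MUT (SD, n = 4 each). The median of the 8 genes was -0.20 against -0.01 over all features.

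**Figure D2:**
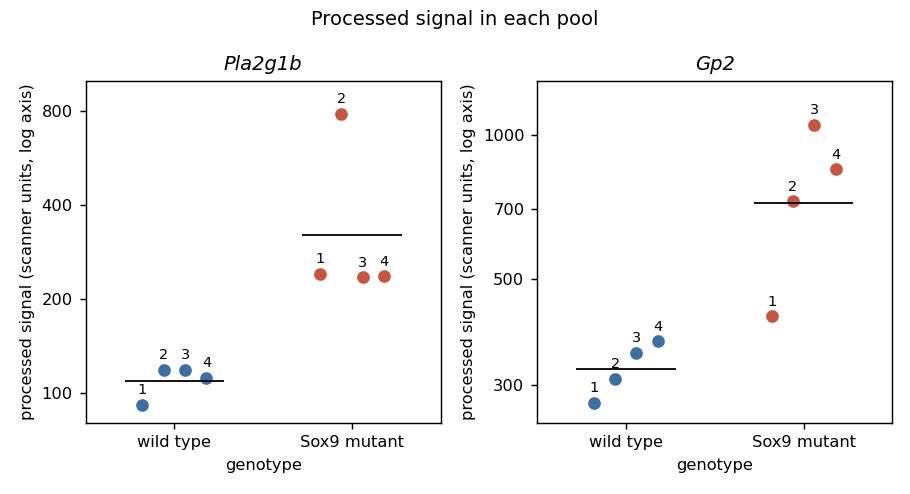
Processed signal in scanner units (log axis) of Pla2g1b (left) and Gp2 (right) in the 4 WT and 4 MUT pools; numbers are replicate numbers and the black line is the geometric mean of the group. Pla2g1b lies between 91.3 and 118 in WT and between 234 and 786 in MUT, and Gp2 between 275 and 370 in WT and between 418 and 1053 in MUT. These signals are not scaled between arrays. On the centred levels that were tested, Gp2 overlaps, with MUT replicate 1 (-2.45) below WT replicate 3 (-2.41).

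Gp2, the major glycoprotein of the zymogen granule membrane, measured -2.84, -2.74, -2.41 and -2.57 in WT and -2.45, -1.75, -0.96 and -1.28 in MUT (chr7:119236671-119238322, mm8, a span of 1652 bases). MUT replicates 2, 3 and 4 were above every WT pool and MUT replicate 1 was below WT replicate 3. The log2 fold change was 1.03 ± 0.31 (SE; 95% confidence interval 0.31 to 1.75; limma, unadjusted p = 0.0112, adjusted p = 0.0977), and 1.08 without MUT replicate 2 (adjusted p = 0.0685). Gp2 was called only when MUT replicate 1 was left out (1.31, adjusted p = 0.0374) or when arrays were weighted by their quality (1.22, adjusted p = 0.0252), among the 18 other settings tried. It was 0.58 with normexp background correction (adjusted p = 0.932), 0.63 with median scaling (0.516) and 0.59 with quantile normalization (0.450).

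The 3 genes whose profile over the 8 pools was nearest to that of Gp2 were Ctrl, Rbp2 and 2210010C04Rik, with a root mean square difference of 0.22, 0.24 and 0.32 log2 units among 14658 named genes detected on all arrays. Ctrl encodes a chymotrypsin-like protease and 2210010C04Rik a trypsinogen-like protein, both acinar products, and Rbp2 a cellular retinol-binding protein. Ctrl was at -2.60, -2.14, -1.46 and -2.08 in WT and -1.59, -1.26, -0.49 and -0.64 in MUT, a log2 fold change of 1.08 (limma, adjusted p = 0.0956). 2210010C04Rik was at 1.60, 1.98, 2.62 and 2.44 in WT and 2.62, 2.72, 3.31 and 3.84 in MUT, a log2 fold change of 0.97 (limma, adjusted p = 0.130). Neither passed the test, with or without MUT replicate 2 (without it, adjusted p = 0.0564 and 0.0672). The likeness is a description of these 8 arrays.

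**Figure D3:**
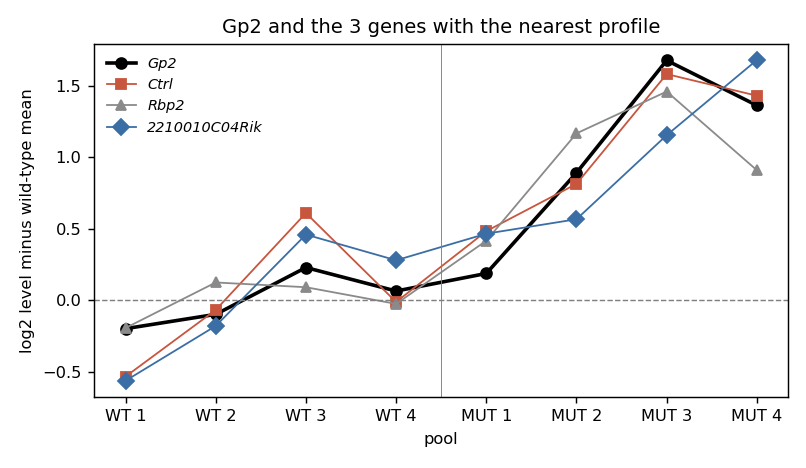
Log2 level minus the gene's own WT mean (vertical axis) in each pool for Gp2 and the 3 genes with the nearest profile; lines join the values of one gene and the order of pools within a genotype has no meaning. All 4 genes are highest in MUT replicate 3 or 4 and between -0.56 and 0.61 in the WT pools.

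Sycn encodes syncollin, which lines the inner granule membrane and takes part in exocytosis. It measured 3.23, 3.51, 4.17 and 3.83 in WT and 3.33, 2.69, 4.19 and 4.07 in MUT (chr7:28250898-28250957, mm8). The groups spanned nearly the same range apart from MUT replicate 2, which was lowest. The log2 fold change was -0.11 with all arrays (95% confidence interval -0.97 to 0.75; limma, adjusted p = 0.856) and 0.18 without that pool (adjusted p = 0.674).

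Amylase splits starch into maltose and short dextrins, and mouse Amy1 is the salivary and liver form beside the pancreatic Amy2 genes. The main Amy1 probe (chr3:113548096-113548155, mm8) is annotated to Amy1 and to Amy2 transcripts, so its signal cannot be assigned to Amy1 alone. It measured 7.44, 7.56, 7.70 and 7.57 in WT and 7.56, 7.44, 7.71 and 7.74 in MUT, a fold of 1.03 (95% confidence interval 0.885 to 1.20; limma, adjusted p = 0.778). The second probe (chr3:113548036-113548095, mm8), annotated to Amy1 alone, measured 5.35, 5.67, 5.85 and 5.84 in WT and 5.75, 5.56, 6.16 and 6.11 in MUT. Its log2 fold change was 0.22 (limma, adjusted p = 0.447) and 0.33 without MUT replicate 2 (adjusted p = 0.175), with MUT replicates 3 and 4 above every WT pool. The other amylase genes tested were Amy2 and Amy2a5. Amy2 measured 7.44, 7.54, 7.64 and 7.50 in WT and 7.28, 6.71, 7.63 and 7.69 in MUT (-0.20, limma, adjusted p = 0.554; 0.0042 without MUT replicate 2, adjusted p = 0.982). Amy2a5 was at -0.34 (limma, adjusted p = 0.403; -0.12 without that pool, adjusted p = 0.616). None of these 4 amylase probes separated the genotypes.

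Rnase1, the secreted pancreatic ribonuclease, had the lowest fold change of the members. Its main probe (chr14:50067253-50067312, mm8) gave 3.79, 4.27, 5.01 and 3.99 in WT and 3.63, 2.55, 4.09 and 4.64 in MUT. Its second probe (chr14:50067000-50067059, mm8) gave 0.94, 1.30, 2.01 and 1.26 in WT and 0.51, -0.58, 1.06 and 1.59 in MUT. Both probes put WT replicate 3 highest and MUT replicate 2 lowest, and on both the genotypes overlapped. The log2 fold changes were -0.54 (95% confidence interval -1.63 to 0.56; limma, adjusted p = 0.481) and -0.73 (adjusted p = 0.363), and without MUT replicate 2 they were -0.14 (adjusted p = 0.789) and -0.32 (adjusted p = 0.501). Of 9 tested genes of the RNase A family and its inhibitor Rnh1, Rnase1 not counted, none was called with all arrays. Without MUT replicate 2, Rnh1 was called higher (0.20, limma, adjusted p = 0.0436), as were 6.76% of all features. With all arrays the smallest p-values were those of Ang2 (0.47, limma, adjusted p = 0.187) and Rnase2a (-0.96, limma, adjusted p = 0.206).

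**Figure D4:**
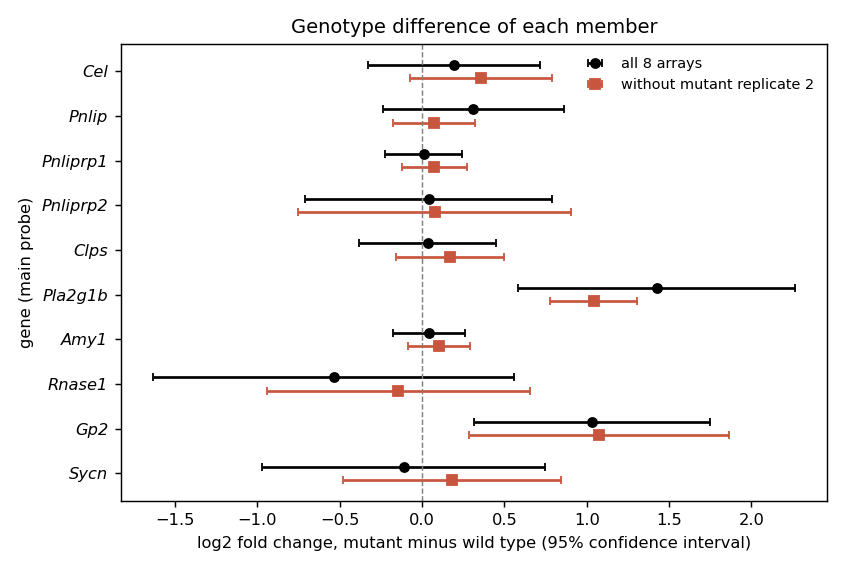
Log2 fold change of MUT over WT with its 95% confidence interval (horizontal axis) for each member, with all 8 arrays (black circles) and without MUT replicate 2 (red squares). The intervals of Pla2g1b and Gp2 lie above 0 in both fits, and those of the other 8 members include 0 in both.

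The nearest profiles of the other members were a mix of gene classes, by the same measure over the 8 pools. Amy1 was nearest to the ribosomal protein gene Rps20 (0.012), then to Pnliprp1 (0.033) and Dlk1 (0.034), and Pnliprp1 to Amy1, Rps20 (0.035) and the ribosomal Rpl35a (0.037). Clps was nearest to Os9 (0.078), Ctsd and Mpeg1, Cel to Rarres2 (0.10), Dglucy and Trp53inp1, Pnlip to Gpsm3 (0.053), Pir and Zfp438, and Pnliprp2 to Aqp8 (0.24), Dcxr and Slc26a9. Pla2g1b was nearest to Nrg1 (0.14), C230035I16Rik and Rln1. These 3 genes lay 2.66 to 2.70 above their WT mean in MUT replicate 2 and 0.84 to 1.22 above it in the other MUT pools. Pla2g1b lay 2.57 and 0.96 to 1.1 above its own. Sycn was nearest to the elastase gene Cela3b (0.16), Fcgr4 and Lgals3bp, and Rnase1 to Ppbp (0.26), the chymotrypsin gene Ctrc and Myo15b. Genes with a small spread over the pools lie near each other by this measure whatever they encode.

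Pools of one genotype differed from each other in most members in the same order. WT replicate 1 was the lowest and WT replicate 3 the highest WT pool in 10 of 10 members, an order that 7.92% of all features had. The place of WT replicate 3 depends on the centring, as its array had the lowest 75th percentile of the WT arrays (1971 scanner units). That of WT replicate 4 was the highest (2349). Before centring, WT replicate 1 was still lowest, but WT replicate 4 was highest in Cel, Pnlip, Pnliprp1, Pnliprp2, Clps, Amy1 and Gp2. The median distance of a member from its WT mean was -0.21, -0.01, 0.21 and 0.03 log2 units in WT replicates 1 to 4. The median distance from the MUT mean was -0.25, -0.19, 0.32 and 0.23 in MUT replicates 1 to 4. Without MUT replicate 2, MUT replicate 1 was the lowest MUT pool in 10 of 10 members (26.6% of all features). Before centring this did not hold for Pla2g1b and the main Amy1 probe. MUT replicate 2 was the highest MUT pool in Pnlip and Pla2g1b, the lowest in 6 members and between the others in Pnliprp2 and Gp2.

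The acinar proteases had part of this order, and the other acinar lists had little of it. Of 14 acinar protease genes, 11 were lowest in WT replicate 1, 9 highest in WT replicate 3 and 7 both, and all 14 were lowest in MUT replicate 1 once MUT replicate 2 was set aside. WT replicate 1 lowest with WT replicate 3 highest was found in 4 of 21 other granule and exocytosis genes, 0 of 6 receptors of acinar secretion and 0 of 9 acinar and tip transcription factors. Among other cell types it was found in 7 of 11 endocrine and 5 of 12 mesenchyme markers, in 0 of 8 duct markers and in 0 of 8 erythroid markers. The summed level of the mesenchyme list was 379 to 450 in WT and 301 to 395 in MUT, and that of the endocrine list was 203 to 262 and 71.2 to 185. The order was noticed after the values were seen, is given without a test, and its part in the genotype differences was not tested.

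**Figure D5:**
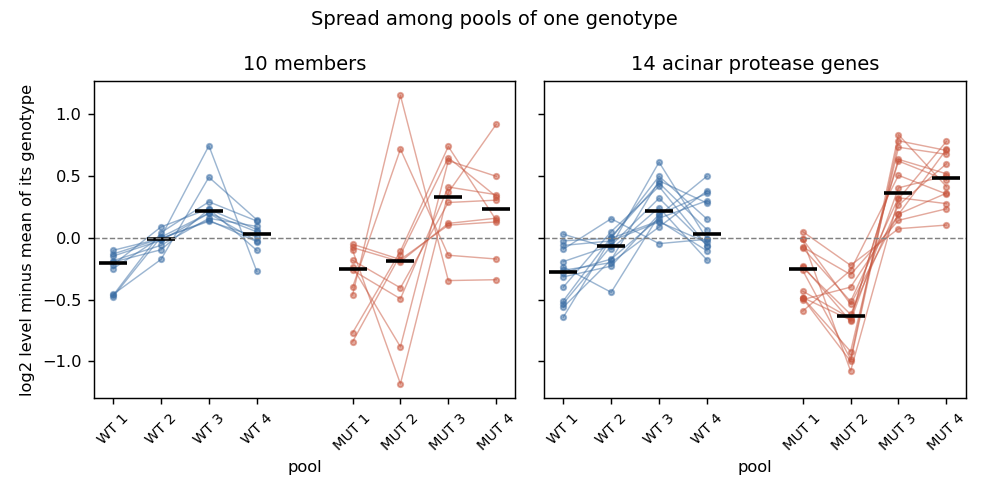
Log2 level minus the mean of the gene's genotype (vertical axis) in each pool, for the 10 members (left) and 14 acinar protease genes (right); thin lines join the values of one gene within a genotype, black bars are medians, and the order of pools has no meaning. The members' medians run from -0.21 to 0.21 in WT and from -0.25 to 0.32 in MUT.

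The rest of the acinar programme gave calls at about the share of all features. Over 4 lists of other acinar genes, 3 of 50 (6%) were called, all lower, against 5.58% of all features (3.46% lower). Once MUT replicate 2 was left out the count was 9 of 50 (18%), all lower, against 17.4% of all features (10.6% lower). None of 14 protease genes was called in either direction (median log2 fold change -0.18; 0.07 without MUT replicate 2). Among 21 other granule and exocytosis genes, Rab27a, a small GTPase of secretory vesicle docking, was called lower (-1.19, limma, adjusted p = 0.0449) and none higher; their median was -0.10. Of 6 receptors that drive acinar secretion, Vipr1, a receptor for vasoactive intestinal peptide, was called lower (-0.53, limma, adjusted p = 0.0385), with a median of -0.22. Of 9 acinar and tip transcription factors, Gata6 was called lower (-0.27, limma, adjusted p = 0.0485), while Ptf1a was at -0.32 (limma, adjusted p = 0.184) and Rbpjl at -0.22 (adjusted p = 0.407). Without MUT replicate 2 the calls were Itln1, Rab27a, Serpini2 and Sdf2l1 among the granule genes, Cckar, Chrm3 and Vipr1 among the receptors, and Gata6 and Bhlha15 among the factors. Itln1, counted among these 9, was well above background on only 5 arrays, with a WT mean of -4.87. Its log2 fold change in that fit (-2.54) therefore rests partly on values not well above background, and its size is uncertain.

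Of 16 vascular, gastric and intracellular lipases and lipase helpers, Lmf1, a factor needed for the folding of lipoprotein and hepatic lipase, was called lower (-0.45, limma, adjusted p = 0.0309) and none higher. Without MUT replicate 2, Lipc, the hepatic lipase gene, was called higher (0.82, limma, adjusted p = 0.00295) and Mgll, Lmf1 and Ces1d lower. Of all features, 3.46% were called lower with all arrays. Without MUT replicate 2, 6.76% were called higher and 10.6% lower. Of 5 zona pellucida domain relatives of Gp2, none was called with all arrays, and the smallest p-values were those of Zp3 (-0.79, limma, adjusted p = 0.205) and Cuzd1 (0.67, adjusted p = 0.245). Zp3 was called lower without MUT replicate 2 (-1.13, adjusted p = 0.00656). Their median was 0.37 with all arrays and -0.29 without that pool. For comparison, 6 of 11 endocrine markers were called lower (3.46% of all features) and none higher, led by Neurog3 at -1.89 (limma, adjusted p = 0.00214), Isl1 at -0.88 (0.00995), Pax6 at -1.27 (0.0189) and Ghrl at -1.35 (0.0364). In the fit without MUT replicate 2, 10 of the 11 were called lower (10.6% of all features).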

How the data were processed

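The 8 scanner files were made with Agilent Feature Extraction 9.5.3.1 on array design 014868, per the file headers, and the deposited intensity values used are the background-subtracted processed signals, on a linear scale and not normalized between arrays. limma is the tool named in the submitters' processing notes, with no version or role given. From these intensities, spots flagged as outliers were left out, log2 values of repeated spots averaged, and every array centred on its own 75th percentile. Probes well above background on at least 4 of 8 arrays were kept, without regard to genotype, and each gene was represented by the probe with the highest mean. MUT and WT were compared with limma 3.58.1 in R 4.3.3 (lmFit, eBayes, two-sided), with Benjamini-Hochberg adjustment over all 19333 features and a threshold of 0.05. The fit was run on simulated data in which both genotypes had the WT spread. That simulation held no array like MUT replicate 2 and no slide difference, so it does not cover those features of these data. Arrays of 4 pools a genotype limit the precision.

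Probes were named through RefSeq by accession (24375), symbol (6301) or synonym (2426), and 8072 were left with the name on the array. Probe coordinates are those of the files (mm8). The deposited table of the whole series holds linear intensity values with column medians of 316 to 354 that follow the median spot signal of each array (r on the log2 scale of 0.982 or more) with no background subtracted; the between-array step behind it is not given in the sources used here. It was an alternative, as were another background correction, scaling, filter and probe choice, array weights, a replicate block and leaving out each array.

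The members and gene lists were chosen with earlier results of these data known. All members are named; from each list, called genes (at most 4), or else the 2 with the smallest p, and for a member the 3 nearest profiles. Lists of cell type markers are given by counts, with genes named only where they bear on a member. Ptf1a, Rbpjl, genes called only without MUT replicate 2 and the markers with values were named in addition, after their values were seen.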

Additional observations from a re-analysis of the deposited data

Results flagged for a closer look

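In 1 of the 24 sets of 4 arrays examined (each probe in each genotype), a pool stood far from the other 3. The Pla2g1b probe measured -1.63 (log2 level relative to the array's 75th percentile) in MUT replicate 2 against -3.25 to -3.12 in the other MUT pools. Chance alone flags about 1 in 20 such sets. The 3 other MUT pools were all above the highest WT pool, at -3.98. On the array of MUT replicate 2 the probe read 786 scanner units, near that array's median of 756.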

How the results depend on the processing

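Pla2g1b was higher in MUT under all 18 alternatives (log2 fold change 0.46 to 1.58, limma adjusted p from 0.00129 to 0.997), Gp2 was higher under all 18 (0.58 to 1.31, adjusted p from 0.0252 to 0.932) and Rnase1 lower under all 18 (-0.94 to -0.10). The number of members called was 1 with quantile normalization (Pla2g1b), 2 with array weights (Pla2g1b, Gp2), 1 with the deposited series table (Pla2g1b), and 0 to 1 when each array was left out (Gp2 without MUT replicate 1, Pla2g1b without MUT replicate 2); it was 0 under the other settings. Features called were 78 with normexp background correction (20.5% of them higher, against 38.1% in the reported fit), 45 with median scaling, 426 without a filter on dim probes, 711 with the mean of all probes of a gene, 4688 with array weights, 2179 with the series table, and 363 to 3355 when each array was left out, the latter without MUT replicate 2. With the replicate number as a block, 145 features and 0 members were called; deviations of same-numbered pools correlated at 0.02, -0.02, 0.05 and 0.13, so the numbers are not taken to pair the pools. Median scaling moved the median of all features to -0.40, and Cel (-0.20), Pnlip (-0.086), Pnliprp1 (-0.39), Pnliprp2 (-0.36), Clps (-0.36) and Amy1 (-0.35) changed sign with it. Both scalings subtract 1 value from each array, so the distance of these genes above that median, 0.02 to 0.32, could not change. Pnlip turned to -0.23 with normexp, -0.36 with quantile normalization and -0.041 with the series table. Sycn turned to 0.020 with normexp, 0.025 with quantile normalization, 0.30 with array weights and 0.031 with the series table. When each array was left out, Pnliprp1 ranged from -0.042 to 0.075, Pnliprp2 from -0.21 to 0.30, Clps from -0.067 to 0.17, Amy1 from -0.00043 to 0.10 and Sycn from -0.32 to 0.18. The cause of these reversals was not tested. Signal over background limits the second Pnlip probe, which was well above background on 3 of 8 arrays.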
